A study of Schizosaccharomyces pombe with 40 samples.

Results

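The tubulins and spindle motors examined here are 10 genes of Schizosaccharomyces pombe, taken from a list of identifiers out of the 12684 features of a poly(A)+ RNA-seq count table. The list holds the α-tubulins nda2 (SPBC16A3.15c) and atb2 (SPBC800.05c), the β-tubulin nda3 (SPBC26H8.07c), the γ-tubulin gtb1 (SPBC32F12.04), the kinesins cut7 (SPAC25G10.07c), pkl1 (SPAC3A11.14c), klp2 (SPAC664.10), klp5 (SPBC2F12.13) and klp6 (SPBC1685.15c), and the microtubule bundler ase1 (SPAPB1A10.09). Of the 10, 9 were found by identifier. The identifier listed for nda2, SPBC16A11.15c, was not found in the table, and the feature whose RefSeq symbol is nda2 was used instead. The study asked how meiotic mRNAs change over time when the box C/D snoRNA snR107 carries mutated bases in its kink-loop. The snR107kloopmut strain (kloopmut from here on; leu1-32, pat1-L95G::kanR, snR107kloopmut) was compared with wt (leu1-32, pat1-L95G::kanR), so both strains were haploid h- cells carrying the analog-sensitive Pat1 kinase. Cells were sampled in vegetative growth in EMM (V), after overnight nitrogen starvation in EMM-N (-N), and each hour from 1 to 8 h after 25 µM 3-MB-PP1, which inhibits this kinase, was added together with leucine and NH4Cl. Each of the 20 groups had 2 replicates, labelled as biological, which gave 40 libraries. Hourly samples were aliquots of the same cultures, 4 in all. The edgeR fit took the 40 libraries as independent, so its p-values and SEs may be too small. Leaving out a replicate below means all libraries of a strain with that number. Meiosis here runs in haploid cells, without the pairing of homologous chromosomes that a diploid would allow.

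Microtubules are polymers of α- and β-tubulin dimers, nucleated from γ-tubulin complexes. In fission yeast, Cut7 is the plus-end-directed kinesin-5 that pushes spindle poles apart, and Pkl1 and Klp2 are minus-end-directed kinesin-14 motors that oppose it. Klp5 and Klp6 are kinesin-8 motors that act as a heterodimer to keep microtubules short and chromosomes aligned, and Ase1 bundles antiparallel microtubules at the spindle midzone. In meiosis these proteins serve first the long cytoplasmic arrays on which the horsetail nucleus moves, and later the spindles of the successive divisions. Mei4 is the forkhead factor that turns on the middle meiotic genes of this course, among them genes needed for the divisions.

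Total counts per library lay between 22889781 and 35440184, and replicates of a group differed by more than sampling noise (chi-square per feature of 10.7 to 137). The h- markers mfm1, mfm2, mfm3 and mam2 summed to 121 to 47390 CPM (counts scaled to a common total) in kloopmut libraries and 84.8 to 40050 CPM in wt libraries, whereas the h+ markers map2 and map3 summed to 24.8 to 84.2 CPM in kloopmut libraries and 6.60 to 70.1 CPM in wt libraries. Of these 2, map2 had at most 65 counts in any library (median 10). The other, map3, was detected in every library, with 163 to 2851 counts (median 1229). The meiosis markers mei4, spo6 and isp3 summed to 75.1 to 84220 CPM in kloopmut libraries and 68.4 to 110900 CPM in wt libraries. Levels below are RPKM (reads per kilobase of feature, scaled for depth), computed with trimmed-mean (TMM) scaled library sizes. Scaling by total counts instead would move the median log2 strain difference of all features by -0.02 to 0.80 over the 10 stages, most at 6 h, and the median 8 h minus 3 h change by -1.12 in kloopmut and -1.21 in wt, so that changes below are relative to the other features of a library. In RNA from whole cultures, a change in the share of cells at a stage and a change per cell cannot be told apart.

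The genes lie at chrII:4268912-4270761 (nda2, plus strand), chrII:260309-262116 (atb2, minus), chrII:3964092-3965973 (nda3, minus), chrII:2791351-2794184 (gtb1, plus), chrI:4306511-4310337 (cut7, minus), chrI:3438890-3442117 (pkl1, plus), chrI:1721954-1724902 (klp2, plus), chrII:1709081-1712117 (klp5, minus), chrII:532193-535148 (klp6, minus) and chrI:1878189-1880726 (ase1, plus). The file gives these positions, and the RefSeq assembly ASM294v3 has the same start and end for 12594 of 12602 features found in it. The strand setting of the read counting is not given in the sources used here, and the counts were read as made without strand. SPNCRNA.6519, on the other strand of 98.8% of nda2, held 87.7% to 104% of the nda2 count in every library. Features on the other strand covered 21.0% of atb2, 87.3% of gtb1, 68.3% of cut7, 65.0% of pkl1, 79.7% of klp2, 83.7% of klp5, 81.3% of klp6 and 39.4% of ase1. Only nda3 shared no base with another feature. Sense and antisense RNA cannot be told apart in counts made without strand, at nda3 too, and the other 9 genes have annotated features on the other strand. Reads shared between the α-tubulins are a lesser concern: the annotated coding sequences of nda2 and atb2 encode proteins of 88.4% identity, but agree at 76.3% of aligned bases, share no stretch of 50 bases and have a longest common run of 29 bases.

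The level of the members per kilobase spanned a wide range. At 3 h, nda3 had 252 and 236 RPKM in kloopmut libraries and 349 and 374 RPKM in wt libraries, and nda2 had 197 and 192 RPKM in kloopmut libraries against 279 and 310 RPKM in wt libraries. The motors lay far below, with cut7 at 10.5 and 8.29 RPKM in kloopmut libraries and 7.65 and 6.80 RPKM in wt libraries. The order changed with time. In wt libraries of 6 h, klp5 had 348 and 410 RPKM, above nda2 at 306 and 314 RPKM and nda3 at 315 and 340 RPKM, while in kloopmut libraries of 6 h klp5 had 53.3 and 70.6 RPKM and stayed below both tubulins.

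**Figure D1:**
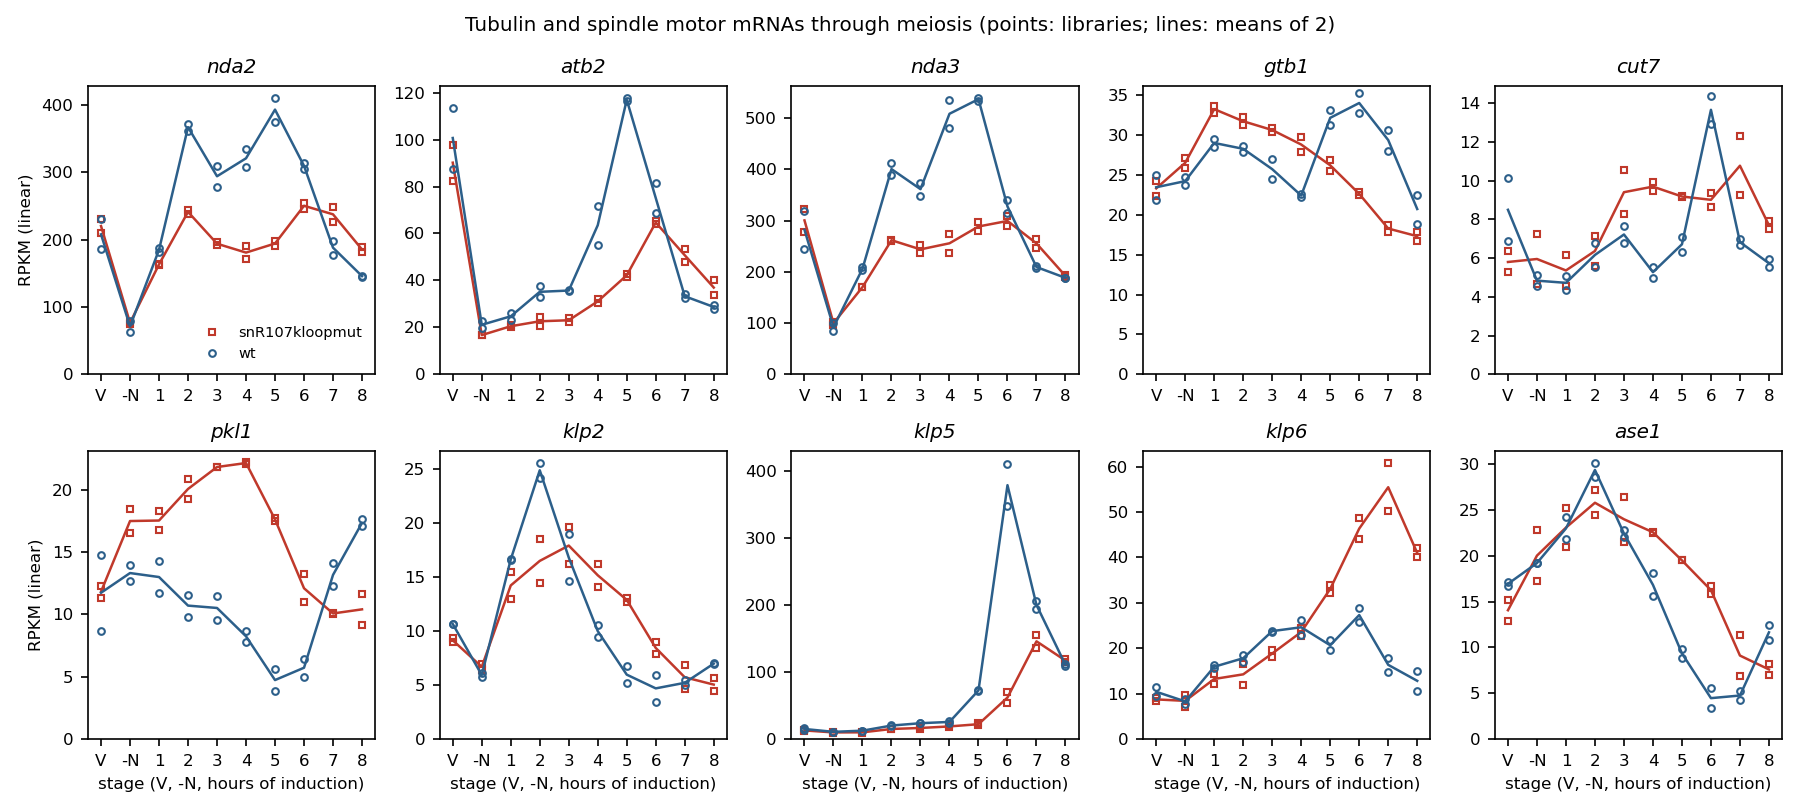
Level of each of the 10 mRNAs in RPKM (linear axis) by stage, with kloopmut as red squares and wt as blue circles; points are libraries and lines join the means of 2. With this TMM-scaled measure the wt courses of klp5 and cut7 have a single high point at 6 h, where klp5 averaged 379 RPKM. The kloopmut libraries of pkl1 lie above the wt ones from -N to 6 h.

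Nitrogen starvation lowered the mRNAs of the microtubule polymer itself. In kloopmut cells, nda2 had 75.1 and 77.9 RPKM in -N against 231 and 210 RPKM in V, and in wt cells 63.1 and 79.2 RPKM in -N against 186 and 230 RPKM in V. The log2 change of nda2 was -1.53 ± 0.11 (SE) in kloopmut and -1.55 ± 0.11 in wt, that of nda3 -1.59 ± 0.11 in kloopmut and -1.62 ± 0.11 in wt, and that of atb2 -2.43 ± 0.14 in kloopmut and -2.26 ± 0.14 in wt (edgeR quasi-likelihood test, Benjamini-Hochberg adjusted p of 3.85e-12 or lower in each case). No -N library reached the lowest V library for any of these genes. In kloopmut, 7 of 10 members passed the test (56.1% of all 12019 features tested did), and in wt 6 of 10 did (55.6%), so the shares are near those of all features. In wt, klp5, klp2 and cut7 also fell, and gtb1, pkl1, klp6 and ase1 did not pass. In kloopmut, klp2 (-0.45 ± 0.19) fell, klp5 (-0.38 ± 0.14) fell except with total counts, where its value was 0.02, and ase1 (0.51 ± 0.18) rose. The pkl1 count also rose (0.56 ± 0.18), but not with the reads of its overlapping features SPNCRNA.561 and pfd6 removed (0.13, edgeR adjusted p = 0.919), an alternative described below with pkl1. The count of 7 in kloopmut became 3 without kloopmut replicate 1 and 4 without kloopmut replicate 2. Without replicate 1 the calls of pkl1 (0.53), klp2 (-0.49), klp5 (-0.33) and ase1 (0.40) were lost, and without replicate 2 those of pkl1 (0.57), klp2 (-0.44) and ase1 (0.58). With total counts klp2 in kloopmut (-0.05) and cut7 (-0.53) and klp5 (-0.16) in wt no longer passed. In wt the call of cut7 (-0.82 ± 0.20) was lost without wt replicate 1 (-0.60) and that of klp5 (-0.48 ± 0.14) without wt replicate 2 (-0.32). No member's change differed between the strains at the threshold (0 of 10 by edgeR, DESeq2 and limma-voom, with 0.674% of all features called by edgeR). With each tool 1 member had an unadjusted p under 0.05, and without wt replicate 2 pkl1 passed with edgeR (0.67).

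By 3 h of induction the tubulin mRNAs nda2, nda3 and atb2 were above their levels in starved cells. At 3 h against -N, 7 of 10 members rose in kloopmut (55.2% of all features changed) and the same 7 rose in wt (59.7%), these being nda2, atb2, nda3, cut7, klp2, klp5 and klp6, and none fell. The rise of nda2 was 1.34 ± 0.11 (SE, log2) in kloopmut and 2.05 ± 0.11 in wt, and that of nda3 was 1.29 ± 0.11 in kloopmut and 1.98 ± 0.12 in wt. These were the only members whose rise differed between strains (2 of 10, against 5% of all features), by -0.71 ± 0.15 for nda2 (edgeR, adjusted p = 0.00648) and -0.69 ± 0.16 for nda3 (adjusted p = 0.00997). Both calls depended on wt replicate 1 (-0.62 for each gene when it was left out), and on each kloopmut replicate (-0.76 and -0.71 with the first left out, -0.75 and -0.77 with the second). Calls of atb2 in kloopmut (0.46 ± 0.13) rested on both of its replicates, being lost without replicate 1 (0.41) or 2 (0.52), and so did those of cut7 in wt (0.58 ± 0.20; 0.59 without replicate 1 and 0.63 without replicate 2), whereas cut7 in kloopmut (0.66 ± 0.19) was lost without kloopmut replicate 2 (0.54).

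Between 2 h and 5 h the α- and β-tubulin mRNAs were lower in kloopmut than in wt. At 5 h, nda2 had 191 and 198 RPKM in kloopmut libraries against 376 and 411 RPKM in wt libraries, and nda3 had 280 and 297 RPKM in kloopmut libraries against 534 and 540 RPKM in wt libraries. At the same hour atb2 had 42.7 and 41.6 RPKM in kloopmut libraries and 118 and 116 RPKM in wt libraries. The libraries of the 2 strains did not overlap for any of these genes at 5 h. The log2 differences were -1.02 ± 0.11 for nda2, -0.90 ± 0.11 for nda3 and -1.47 ± 0.13 for atb2 (SE; edgeR, adjusted p of 5.84e-08 or lower), and -0.39, -0.27 and -0.85 with total counts, which also passed. From 2 h to 4 h the differences lay between -0.57 and -1.03, and each passed, atb2 at 2 h losing its call without kloopmut replicate 2 (-0.54). In wt, nda2, nda3 and atb2 had their highest induced means at 5 h (394, 537 and 117 RPKM), the 5 h libraries of nda3 overlapping those of 4 h. In kloopmut the highest induced means came at 6 h and were 250.5, 299 and 64.7 RPKM, the 6 h libraries of nda2 overlapping those of 7 h. These hours hold for TMM-scaled values. At 5 h wt nda2 had 14000 and 18442 of 22889781 and 29161612 total counts. At 2 h it had 17947 and 24381 of 23113586 and 32659249, a larger share.

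Later the order turned. At 6 h nda2 was still lower by 0.31 (SE 0.11) with TMM scaling and higher by 0.49 with total counts. At that hour nda3 and atb2 did not pass with edgeR, but passed as lower with DESeq2 (-0.30 for nda3 and -0.39 for atb2) and as higher with total counts (0.67 for nda3 and 0.58 for atb2). At 7 h, atb2 had 53.5 and 47.9 RPKM in kloopmut libraries against 34.04 and 32.45 RPKM in wt libraries, a log2 difference of 0.61 ± 0.13 (SE; edgeR, adjusted p = 0.000223). nda2 was higher by 0.34 ± 0.11 at 7 h and 0.35 ± 0.11 at 8 h, nda3 by 0.29 ± 0.11 at 7 h, and atb2 by 0.37 ± 0.13 at 8 h. These smaller calls rested on single replicates. At 7 h, nda2 lost its call without wt replicate 1 (0.26) or kloopmut replicate 1 (0.19), and nda3 with the loss of either wt replicate (0.29 without 1, 0.19 without 2) or of kloopmut replicate 1 (0.16). At 8 h, nda2 lost it without kloopmut replicate 1 (0.31), and atb2 without wt replicate 1 (0.33) or kloopmut replicate 1 (0.22). From 3 h to 8 h nda2 fell by 1.01 in wt (SE 0.11), and the change differed between strains by 0.95 ± 0.15 (adjusted p = 1.37e-05). atb2 rose by 0.68 ± 0.13 in kloopmut over these hours with TMM and RLE scaling and fell by 0.44 with total counts.

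The count of the γ-tubulin gtb1 varied least of the tubulin counts over the course, its highest mean being 1.92 times its lowest in kloopmut and 1.64 times its lowest in wt. Its levels lay between 16.8 and 33.7 RPKM in kloopmut libraries and between 18.9 and 35.2 RPKM in wt libraries. At 7 h it had 18.8 and 17.8 RPKM in kloopmut libraries against 28.1 and 30.7 RPKM in wt libraries, a log2 difference of -0.68 ± 0.09 (SE; edgeR, adjusted p = 2.72e-07). The difference was 0.36 ± 0.09 at 4 h, and -0.30 ± 0.09 at 5 h and -0.59 ± 0.09 at 6 h, the values of 5 h and 6 h turning to 0.33 and 0.21 with total counts. Beyond that, 36.9% of gtb1 lies on the other strand of cwf12 (SPBC32F12.05c), a splicing factor gene, whose count was 34.9% to 82.0% of that of gtb1. Another 50.5% lies on the other strand of SPNCRNA.5820. At 3 h SPNCRNA.5820 had 13.85 and 12.22 RPKM in kloopmut libraries and 13.96 and 13.46 RPKM in wt libraries. At 5 h it had 13.54 and 13.38 RPKM in kloopmut libraries and 26.97 and 25.57 RPKM in wt libraries. With the cwf12 reads taken off the gtb1 count, an alternative chosen after seeing the data, the difference was -0.36 at 4 h, which no longer passed. It was -1.29, -1.39 and -1.18 at 5, 6 and 7 h, which passed. Taking off the cwf12 reads also removes those of gtb1 itself over the 1045 shared bases. From 3 h to 8 h the full gtb1 count fell in both strains, but rose without cwf12 reads, by 0.53 in kloopmut and 0.46 in wt. The small range given above is thus that of the full count. At 3 h the call (0.25 ± 0.09) was lost in 3 of the 4 cases with a replicate left out (0.15 without wt replicate 2, 0.23 without kloopmut replicate 1, 0.19 without kloopmut replicate 2) and became -0.47 without cwf12 reads. Those of 4 h (0.28) and 5 h (-0.24) were lost without kloopmut replicate 2, and that of 8 h (-0.26 ± 0.09) with the loss of wt replicate 1 (-0.12) or of either kloopmut replicate (-0.22 without 1, -0.30 without 2).

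cut7, the kinesin-5, had a single high hour in wt with TMM scaling, but not as a share of total counts. At 6 h it had 8.67 and 9.37 RPKM in kloopmut libraries against 14.4 and 12.9 RPKM in wt libraries, a log2 difference of -0.60 ± 0.20 (SE; edgeR, adjusted p = 0.00784) that was 0.19 with total counts and did not pass without wt replicate 1 (-0.52). At 4 h the order was the opposite, with 9.93 and 9.47 RPKM in kloopmut libraries and 5.00 and 5.55 RPKM in wt libraries, and the difference of 0.88 ± 0.20 passed (adjusted p = 0.000488), also with each replicate left out. In RPKM the wt 6 h libraries stood above those of every other stage, the next being V at 10.1 and 6.86 RPKM. Before TMM scaling, wt cut7 had 773 and 689 of 24490667 and 25024541 total counts at 6 h. At 3 h it had 1081 and 1049 of 25940540 and 30514754, a larger share. In kloopmut no hour stood apart: the highest mean, 10.8 RPKM at 7 h, came from 9.26 and 12.3 RPKM and overlapped the libraries of 4 h. Differences at 5 h (0.45 ± 0.20) and 7 h (0.66 ± 0.20) also passed, the call of 5 h being lost whichever replicate was left out (0.34 to 0.54) and that of 7 h with the loss of either wt replicate (0.63 without 1, 0.59 without 2) or of kloopmut replicate 2 (0.46). The 4 h difference was not even along cut7. At the cut7 end, SPNCRNA.3934 had 24.22 and 25.75 RPKM in kloopmut and 7.875 and 11.06 RPKM in wt libraries. At its start, SPNCRNA.3937 had 4.549 and 2.982 against 3.395 and 2.549, which overlap. At 6 h SPNCRNA.3934 was higher in kloopmut (31.89 and 27.7 against 17.73 and 24.19). SPNCRNA.3937 was lower (1.922 and 3.49 against 10.27 and 8.22). Both lie on the other strand, and their part in the cut7 values was not tested.

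The opposing kinesin-14 genes differed from each other. klp2 rose early in both strains, to 18.5 and 14.5 RPKM at 2 h in kloopmut libraries and 25.6 and 24.2 RPKM in wt libraries. The wt mean of 2 h stood above all other wt stages, whereas in kloopmut the libraries of 2, 3 and 4 h overlapped. At 5 h, klp2 still had 13.1 and 12.7 RPKM in kloopmut libraries, against 6.74 and 5.19 RPKM in wt libraries, a log2 difference of 1.11 ± 0.19 (SE; edgeR, adjusted p = 1.07e-05). At 2 h the difference was -0.59 ± 0.19 and at 8 h -0.47 ± 0.20, while it was 0.60 ± 0.19 at 4 h and 0.84 ± 0.20 at 6 h. Calls were lost at 2 h without wt replicate 1 (-0.55) or kloopmut replicate 2 (-0.45), at 4 h without the same replicates (0.52 and 0.46), and at 6 h without wt replicate 2 (0.39). The 8 h call did not survive the loss of either wt replicate (-0.45 without 1, -0.52 without 2) or of kloopmut replicate 1 (-0.32). It was also lost with limma-voom (-0.50), with total counts (-0.41), without a filter (-0.46) and with the 8 h libraries fitted alone (-0.45). The 2 h call was lost with total counts (-0.51) and with the 2 h libraries fitted alone (-0.60).

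pkl1 was higher in kloopmut from 2 h to 6 h, but its count cannot be read as pkl1 mRNA alone. At 4 h it had 22.1 and 22.2 RPKM in kloopmut libraries and 7.80 and 8.68 RPKM in wt libraries, and at 5 h 17.7 and 17.5 RPKM in kloopmut libraries against 5.62 and 3.85 RPKM in wt libraries. The libraries of the strains did not overlap from -N to 6 h, those of kloopmut being higher, but the differences in -N and at 1 h did not pass. From 2 h to 6 h the log2 differences were 0.90 ± 0.18, 1.05 ± 0.18, 1.43 ± 0.18, 1.90 ± 0.19 and 1.08 ± 0.19 (SE; edgeR, adjusted p of 0.000527 or lower). In wt, pkl1 then had 14.1 and 12.2 RPKM at 7 h and 17.1 and 17.6 RPKM at 8 h, where the difference was -0.74 ± 0.18. That 8 h call was lost without kloopmut replicate 1 (-0.58). Features of the other strand moved with these values. SPNCRNA.561, which lies wholly inside pkl1 and covers 35.3% of it, held on average 24.1% of the pkl1 counts in kloopmut and 75.4% in wt at 7 h, and 44.8% in kloopmut and 61.3% in wt at 8 h. Its own density was 6.16 and 7.60 RPKM in kloopmut libraries and 31.5 and 25.0 RPKM in wt libraries at 7 h. With its reads taken off, an alternative chosen after seeing the data, the rest of pkl1 had 12.12 and 11.49 RPKM in kloopmut libraries and 4.59 and 5.31 RPKM in wt libraries at 7 h, the difference at 6 h was 2.61, that at 8 h (-0.22) no longer passed, and the wt change from 3 h to 8 h was -0.25 instead of 0.72 ± 0.18 (-0.50 with total counts).

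The end of pkl1 overlaps pfd6 (SPAC3A11.13), a prefoldin subunit gene, over 505 bases, and the pfd6 count was 4.10% to 82.7% of that of pkl1, with a median of 65.3%. pfd6 itself was higher in kloopmut by 1.65 ± 0.08 on the log2 scale over 1 to 8 h. With the pfd6 reads also taken off, which removes more than the shared part, 184 counts a library were left at the median, 2 libraries were at 0, and the pkl1 differences from 2 h to 6 h were 0.56, 0.38, 1.56, 2.55 and 2.31, of which that of 5 h alone passed (edgeR, adjusted p = 0.0374). How much of the pkl1 difference belongs to pkl1, to pfd6 or to SPNCRNA.561 cannot be told apart in these counts.

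**Figure D2:**
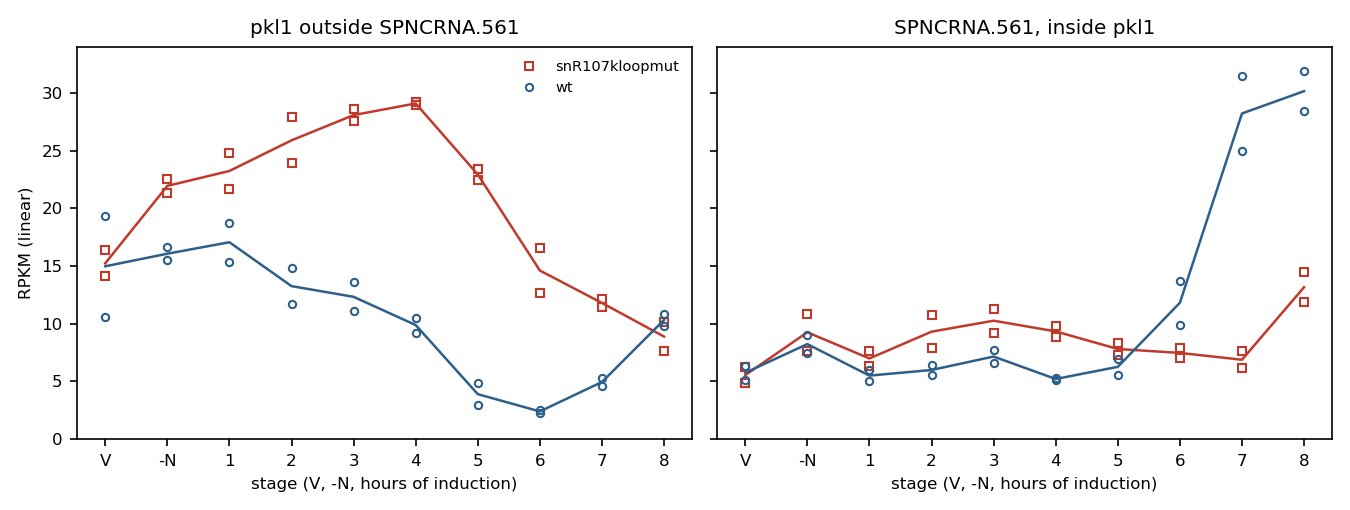
RPKM (linear axis) by stage of pkl1 outside SPNCRNA.561, left, and of SPNCRNA.561, right; kloopmut as red squares, wt as blue circles, points for libraries and lines for means of 2. The part of pkl1 outside SPNCRNA.561 reaches 29.3 RPKM in kloopmut at 4 h and is at 2.49 RPKM or less in wt at 6 h, whereas SPNCRNA.561 is at 25.0 RPKM or more in the wt libraries of 7 and 8 h and at 14.5 RPKM or less in all others.

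The kinesin-8 genes klp5 and klp6, whose products pair with each other, had different courses. klp5 was at 27.4 RPKM or less in every library up to 4 h in both strains. In wt it then had 72.4 and 72.8 RPKM at 5 h, 348 and 410 RPKM at 6 h and 194 and 206 RPKM at 7 h. In kloopmut it had 21.0 and 23.4 RPKM at 5 h, 53.3 and 70.6 RPKM at 6 h, 136 and 156 RPKM at 7 h and 118.9 and 115.3 RPKM at 8 h. The highest mean over the lowest was 14.7-fold in kloopmut and 35.1-fold in wt. The log2 difference was -1.71 ± 0.14 at 5 h and -2.61 ± 0.14 at 6 h (SE; edgeR, adjusted p = 1.6e-11 and 5.76e-15), the largest of any member at any stage. It was -0.46 ± 0.13 at 7 h, or -0.03 with total counts, and the strains no longer differed at the threshold at 8 h. From 2 h to 4 h klp5 was lower by 0.42 to 0.51, calls that often rested on single replicates. The 2 h call needed each wt replicate (-0.41 with the first left out, -0.42 with the second) and kloopmut replicate 2 (-0.44), the 3 h call wt replicate 1 (-0.50), and the 4 h call wt replicate 2 (-0.33) and kloopmut replicate 1 (-0.32). Total counts ended the klp5 calls of 2 h (-0.35) and 4 h (-0.24).

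The klp5 increase was seen along the gene. The features SPNCRNA.5314, SPNCRNA.5315 and SPNCRNA.5316 lie inside klp5 on the other strand and so count its reads in 3 stretches, of 231, 1588 and 722 bases. Their levels at 6 h over 3 h were 3.95-, 3.87- and 3.67-fold in kloopmut and 11.3-, 15.3- and 21.1-fold in wt, the last of each being the stretch nearest the klp5 start. The stretches of klp6, SPNCRNA.4758, SPNCRNA.4759, SPNCRNA.4760 and SPNCRNA.4761, ordered from its end towards its start, changed 3.10-, 2.85-, 2.48- and 2.24-fold in kloopmut and 1.99-, 1.47-, 0.822- and 0.636-fold in wt. In wt the TMM-scaled level at 6 h was thus below that of 3 h at the start of klp6 and above it at the end. Before scaling, the whole wt klp6 count was 2606 and 2822 at 3 h and 1198 and 1058 at 6 h. The stretches of cut7, SPNCRNA.3934 to SPNCRNA.3937 in the same order, changed 1.33-, 0.917-, 0.718- and 0.570-fold in kloopmut and 1.51-, 1.46-, 1.70- and 2.33-fold in wt, the wt fold being highest in the stretch nearest the cut7 start. These folds use TMM scaling, were not computed with total counts, and have no test.

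klp6 was higher in kloopmut than in wt from 5 h to 8 h. At 7 h it had 50.1 and 60.8 RPKM in kloopmut libraries against 17.8 and 14.9 RPKM in wt libraries, and at 8 h 40.02 and 41.98 RPKM in kloopmut libraries against 15.1 and 10.6 RPKM in wt libraries. The log2 differences were 0.68 ± 0.16, 0.76 ± 0.16, 1.76 ± 0.16 and 1.67 ± 0.16 from 5 h to 8 h (SE; edgeR, adjusted p of 0.000439 or lower), and each passed whichever replicate was left out. From 3 h to 8 h klp6 rose by 1.12 ± 0.16 in kloopmut with TMM and RLE scaling, was level with total counts (-0.01), and fell by 0.89 in wt (SE 0.16). The changes differed by 2.01 ± 0.23 (adjusted p = 6.59e-08).

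Because the kinesin-8 genes had different courses, the sequences before their annotated starts are shown, with those of nda3 and atb2, which hold a motif in the same stretch. The 250 bases before each start were searched on both strands for GTAAACA and GTAAATA, the core letters of the forkhead motif that Mei4 is known to bind. Of 5112 coding genes, 26.7% hold at least 1 of them, 14.8% GTAAACA and 14.4% GTAAATA. Among the members nda2, atb2, nda3, klp5 and klp6 did, and klp5 alone held both. In klp5 GTAAATA lies 84 to 78 bases before the start and GTAAACA, read on the other strand as TGTTTAC, 70 to 64 bases before it, while klp6 holds GTAAACA on the other strand 38 to 32 bases before its start. The letters ACGCGT of the cell-cycle MCB box, held by 2.64% of these windows, were in none of the 10. The last 120 bases before the start follow, 5′ to 3′ on the gene's strand, from the RefSeq genome ASM294v3, with the motif letters in capitals. The windows are chrII:1712118-1712237 (klp5), chrII:535149-535268 (klp6), chrII:3965974-3966093 (nda3) and chrII:262117-262236 (atb2), all on the minus strand.
klp5: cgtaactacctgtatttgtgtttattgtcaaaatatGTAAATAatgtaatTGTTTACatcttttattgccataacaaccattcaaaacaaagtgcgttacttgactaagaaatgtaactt
klp6: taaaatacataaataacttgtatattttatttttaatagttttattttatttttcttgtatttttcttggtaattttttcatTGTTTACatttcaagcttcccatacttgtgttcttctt
nda3: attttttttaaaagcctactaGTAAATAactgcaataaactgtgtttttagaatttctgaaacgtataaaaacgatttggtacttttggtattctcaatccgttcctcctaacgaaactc
atb2: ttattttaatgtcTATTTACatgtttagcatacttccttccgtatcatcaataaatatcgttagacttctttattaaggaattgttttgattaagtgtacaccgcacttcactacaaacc
A match is a description of the letters and no evidence of binding, and the genes without a match are not shown to lack control by the factor. The hexamers TTAAAC and TCAAAC, which are only some of the forms of the UNAAAC motif of the RNA-binding protein Mmi1, occurred 0 to 3 times in the members, at 0 (klp6) to 1.18 (ase1) per kilobase against a median of 0.732 over coding genes.

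With TMM scaling ase1 had its highest mean at 2 h in both strains, the kloopmut libraries of 2 h overlapping those of 3 h. Before scaling, kloopmut ase1 had 2470 and 1947 of 28421333 and 28603498 total counts at 2 h. At 3 h it had 2733 and 2030 of 29310162 and 28286232, a larger share. ase1 was higher in kloopmut from 5 h to 7 h. At 2 h it had 27.2 and 24.4 RPKM in kloopmut libraries and 28.6 and 30.1 RPKM in wt libraries. At 5 h it had 19.5 and 19.5 RPKM in kloopmut libraries against 9.82 and 8.88 RPKM in wt libraries, and at 6 h 15.8 and 16.7 RPKM in kloopmut libraries against 5.536 and 3.399 RPKM in wt libraries. The log2 differences were 1.06 ± 0.18, 1.86 ± 0.20 and 0.93 ± 0.20 at 5, 6 and 7 h (SE; edgeR, adjusted p of 0.000199 or lower), and -0.62 ± 0.19 at 8 h, when wt libraries had 10.8 and 12.5 RPKM. The 4 h call (0.42 ± 0.18) was lost whichever replicate was left out (0.32 to 0.54), and that of 8 h without wt replicate 2 (-0.54) or kloopmut replicate 1 (-0.51). SPNCRNA.2846 shares the first 972 bases of ase1 and reaches beyond it. Its mean count over a group was 83.0% to 1553% of that of ase1 in kloopmut and 81.2% to 4550% in wt, highest in wt at 7 h, and it rose by 3.17 ± 0.10 in wt from 3 h to 8 h. Its part in the ase1 values of 7 and 8 h was not tested.

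Counting over the members, strain differences opened at 2 h. In V, -N and 1 h cells 0 of 10 members passed with edgeR, DESeq2 or limma-voom (edgeR called 5.94%, 0.532% and 1.76% of all features). At these stages 1, 2 and 5 members had an unadjusted p under 0.05 with edgeR, the same with DESeq2, and 1, 2 and 4 with limma-voom. Without wt replicate 2, cut7 passed in V (-0.82). At 2 h, 6 passed (1 higher and 5 lower), beside 29.5% of all features, and 6 passed at 3 h (2 higher and 4 lower), beside 26.8%. The count was 9 at 4 h (5 higher and 4 lower, beside 50.9% of all features) and 10 at 5 h (5 and 5, beside 69.4%). It was then 8 at 6 h (4 and 4, beside 68.5%), 8 at 7 h (6 and 2, beside 65.1%) and 7 at 8 h (3 and 4, beside 53.3%). Among coding features alone edgeR called more: 33.6%, 35.6%, 60.1% and 78.5% at 2, 3, 4 and 5 h. The coding shares were 78%, 76.1% and 64% at 6, 7 and 8 h. From 6 h on the member shares are close to these, so that a call is not particular to these genes. Whether the counts of 2 h to 5 h exceed the coding share was not tested. The count of 2 h was 3 without kloopmut replicate 2, and 1 when the 4 libraries of that hour were fitted alone. The count of 7 h was 5 without wt replicate 1, and that of 8 h was 4 with the same replicate left out. With kloopmut replicate 1 left out, klp6 was the 1 member still called at 8 h.

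Averaged over 1 to 8 h all 10 members passed, as did 77.9% of all features and 85% of coding features. klp5 was lower by 0.80 ± 0.05 on the log2 scale (SE), atb2 by 0.41 ± 0.05, nda3 by 0.40 ± 0.04 and nda2 by 0.36 ± 0.04. The 5 higher members were pkl1 (0.71 ± 0.07), klp6 (0.49 ± 0.06), ase1 (0.45 ± 0.07), cut7 (0.30 ± 0.07) and klp2 (0.19 ± 0.07). gtb1 was lower by 0.11 ± 0.03, and higher by 0.18 with total counts. Total counts also left smaller tubulin differences, of -0.07 for nda2, which no longer passed (edgeR, adjusted p = 0.0606), -0.12 for atb2 and -0.11 for nda3. With 1 value per culture, gtb1 (-0.11, limma adjusted p = 0.0832) and klp2 (0.19, limma adjusted p = 0.0577) no longer passed. With SPNCRNA.561 and pfd6 reads removed, pkl1 did not pass either (0.76, edgeR adjusted p = 0.0603). The klp2 call was lost with wt replicate 2 left out (0.06) and with either kloopmut replicate left out (0.16 for the first, 0.14 for the second). The course from -N cells differed between strains for all 10 members (edgeR strain by time interaction, adjusted p of 0.00196 or lower), as for 81.8% of all features. From 3 h to 8 h, 8 of 10 members changed in kloopmut (73.5% of all features) and 9 of 10 in wt (72.6%), and for 8 members the change itself differed between strains (43.6%).

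**Figure D3:**
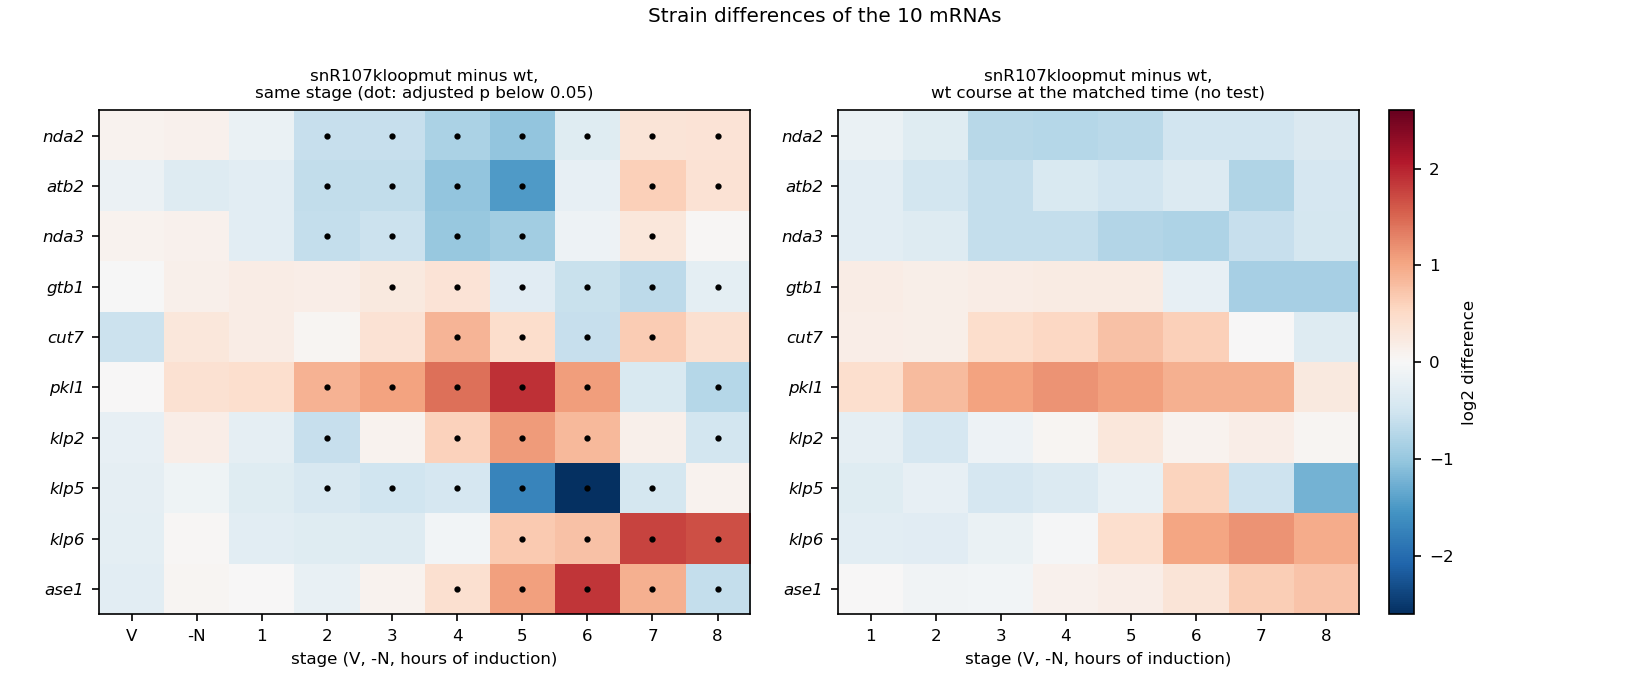
Left, log2 difference, kloopmut minus wt, of each mRNA at each stage with TMM scaling, dots marking an adjusted p below 0.05. Right, kloopmut against the wt course at the matched time, with no test. Red is higher and blue lower in kloopmut. klp5 at 6 h is -2.61 on the left and 0.59 on the right, and with total counts nda2, gtb1 and cut7 at 6 h and gtb1 at 5 h on the left change sign.

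The courses were also compared at matched progression, because kloopmut libraries lagged behind. Each induced library was placed at the time on the wt course where it correlated best across 5065 coding features, the members left out. kloopmut libraries of 3 h were placed at 2.6 and 2.6 h, of 5 h at 3.9 and 3.9 h, of 6 h at 4.4 and 4.5 h, and of 8 h at 6.5 and 6.5 h, whereas wt libraries, placed on the course of the other wt culture, lay within 0.2 h of their own hour. At matched time klp5 was no longer far below wt: its value at 6 h was 0.59 ± 0.18 (SD, n = 2) and at 5 h -0.19 ± 0.11, although it was -1.23 ± 0.03 at 8 h. The α- and β-tubulins stayed lower at every induced hour, nda2 by 0.18 to 0.73 on the log2 scale, atb2 by 0.27 to 0.79 and nda3 by 0.27 to 0.80, so that the higher values of 7 and 8 h at equal hours turned round. klp6 stayed higher from 5 h on, by 0.43 to 1.16, and pkl1 at every hour, by 0.26 to 1.17. klp2 averaged -0.02. These values have no test. The correlation behind the match was 0.9364 to 0.9904 for kloopmut libraries and 0.987 or higher for wt libraries.

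Ratios within a library do not depend on its scaling. The atb2 to nda2 ratio was 0.424 and 0.393 in kloopmut V libraries and 0.472 and 0.493 in wt V libraries, and at 2 h 0.103 and 0.0849 in kloopmut against 0.101 and 0.0906 in wt, so that atb2 was farthest below nda2 early in meiosis in both strains. It then reached 0.265 and 0.252 in kloopmut at 6 h and 0.314 and 0.283 in wt at 5 h. The α- to β-tubulin ratio, nda2 plus atb2 to nda3, stayed between 0.753 and 1.19 in all 40 libraries. The klp5 to klp6 ratio was 1.21 and 1.45 in kloopmut libraries and 12.03 and 15.93 in wt libraries at 6 h, and 2.97 and 2.75 in kloopmut libraries against 7.23 and 10.6 in wt libraries at 8 h. Before 5 h it lay between 0.708 and 1.57 in kloopmut libraries and between 0.766 and 1.79 in wt libraries. The cut7 to pkl1 plus klp2 ratio was 0.411 and 0.469 in kloopmut libraries against 1.16 and 1.54 in wt libraries at 6 h, and its highest kloopmut values, 0.633 and 0.726, came at 7 h. That ratio carries the uncertainty of pkl1.

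**Figure D4:**
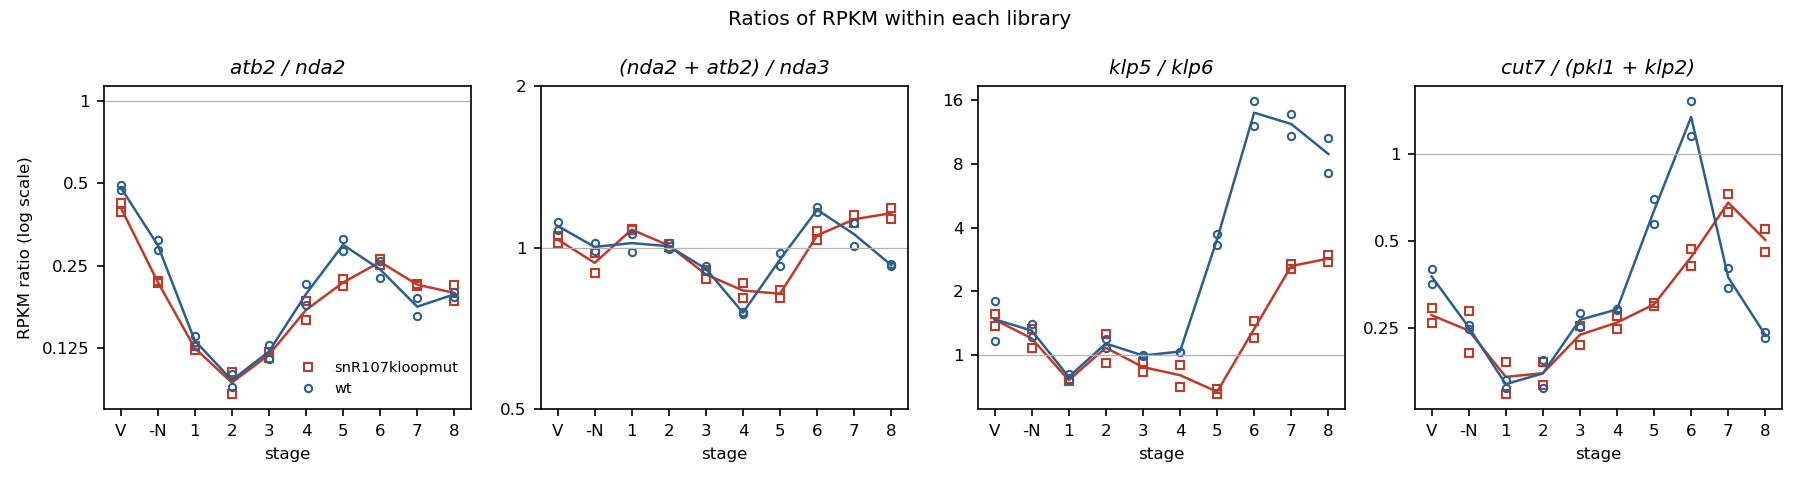
RPKM ratios within each library (log axes) by stage; kloopmut as red squares, wt as blue circles, points for libraries and lines for means of 2, with a grey line at equality. The klp5 to klp6 ratio reaches 15.9 in wt at 6 h and does not exceed 2.97 in kloopmut, while the α- to β-tubulin ratio stays near equality.

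Among the members themselves, nda2 and nda3 had the most similar courses (r = 0.96 over the 20 group means of log2 RPKM, which share libraries and cultures), followed by klp2 and ase1 (r = 0.85). klp5 and ase1 ran opposite (r = -0.89). klp5 and klp6 had r = 0.89 in kloopmut and 0.45 in wt, over 10 groups each. The coding genes most similar to klp5 were cwh43 (r = 0.99) and SPBC887.12 (0.99). Those most similar to ase1 were sap114 and bcd1 (0.99 and 0.98), to klp6 mrpl1 and ksh1 (0.96 each), to klp2 guk1 and rga8 (0.95 and 0.94), and to nda3 zrg17 and mpd1 (0.94 and 0.90). For nda2 these were lsb6 and zrg17 (0.93 and 0.92), for atb2 hpm1 and ssa2 (0.89 and 0.86), for pkl1 tfs1 and elp5 (0.86 each), for cut7 SPAC17C9.11c and caf16 (0.81 each), and for gtb1 kap114 and uso1 (0.77 and 0.72).

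Of 39 further genes of microtubules and spindles, 33 passed in the difference averaged over 1 to 8 h, 26 higher and 7 lower. Beside them, 77.9% of all features and 85% of coding features passed. Their median log2 difference was 0.31, against 0.01 over all features tested. The DASH complex, which couples kinetochores to microtubule ends, had 7 of 9 genes higher, with dad1 (1.24) and dad4 (1.21) the largest, and 1 lower. The tubulin folding cofactors had 4 of 5 higher and 1 lower, led by alp31 (1.19), a cofactor A. The spindle pole body list had 4 of 5 higher, and sad1, a SUN-domain protein of the nuclear envelope, was lower by 0.48. The γ-tubulin complex had 4 higher and 2 lower of 8, alp16 (-0.58) and gfh1 (-0.37) being the γ-tubulin complex proteins that fell. Plus-end and bundling proteins had 4 of 6 higher and 1 lower, other kinesins 2 of 4 higher and 1 lower, and of the genes that anchor Pkl1 at the pole, msd1 was higher and wdr8 did not pass. Total counts, which move the median of all features by 0.28, would raise these differences.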

How the data were processed

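Poly(A)+ RNA from 40 libraries was sequenced, and the authors deposited a table of raw counts per gene. Per the labels, reads were processed with bcl2fastq 2.20, fastp 0.23.1, STAR 2.6.1d and featureCounts (Subread 2.0.6); the genome build, annotation release and strand setting are not given in the sources used here. The study computed RPKM with edgeR, and no test of these RNA-seq counts was found in its methods.

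Counts were fitted with edgeR 4.0.16 (quasi-likelihood, R 4.3.3) as 20 group means with TMM scaling after filterByExpr, which kept 12019 of 12684 features. Adjusted p-values are Benjamini-Hochberg over all of these, with a threshold of 0.05. Depth was 22889781 to 35440184 counts per library. RPKM used TMM-scaled library sizes and the feature length of the file. The fitting was tested on simulated data drawn as independent libraries, which cannot show the effect of shared cultures on the p-values. Members and lists were chosen with earlier results of these data known. All 10 members are described, with 2 most similar coding genes each, and in the pathway list the 3 largest rises and 3 largest falls. Alternatives were RLE and total-count scaling, no filter, coding genes only, DESeq2 1.42.0, limma-voom 3.58.1, each stage alone, replicate blocks, 1 value per culture, matched progression and leaving out each replicate, and, chosen after seeing the data, removal of reads of overlapping features. The mutation alters snR107 without removing it, so that its count does not check the labels.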

Additional observations from a re-analysis of the deposited data

Results flagged for a closer look

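For 8 members the change from 3 h to 8 h differed between strains by a test of the difference itself (edgeR contrast, Benjamini-Hochberg adjusted p over all features). The log2 change in kloopmut minus that in wt was 2.01 for klp6, 1.00 for atb2, 0.95 for nda2, 0.60 for nda3 and 0.60 for klp5. It was -1.79 for pkl1, -0.71 for ase1 and -0.51 for gtb1. Among these, the call of gtb1 was lost without kloopmut replicate 1 (-0.46) or 2 (-0.49), that of klp5 without wt replicate 1 (0.57) or 2 (0.62), and that of ase1 with the loss of either wt replicate (-0.84 without 1, -0.59 without 2) or of kloopmut replicate 1 (-0.45). Total counts ended the call of ase1 (-0.63). The call of pkl1 was lost with SPNCRNA.561 and pfd6 reads taken off (-2.30, edgeR adjusted p = 0.187), and the value of gtb1 was 0.06 with the cwf12 reads taken off. The change from -N to 3 h differed for nda2 (-0.71) and nda3 (-0.69), calls that needed every replicate but wt replicate 2. These comparisons are at equal hours, and kloopmut libraries were placed earlier on the wt course. The part of this lag in the differences was not tested.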

How the results depend on the processing

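Of 118 log2 values that passed, 118 kept direction and call with DESeq2, 116 with limma-voom, 115 with RLE scaling, 116 without a filter and 117 with coding genes only. Total counts ended 12 calls and reversed 9 values, to 0.33 for gtb1 at 5 h, 0.49, 0.21 and 0.19 for nda2, gtb1 and cut7 at 6 h, 0.18 for gtb1 over 1 to 8 h, 0.023 for klp5 in starved against vegetative kloopmut cells, -0.44 and -0.0065 for atb2 and klp6 from 3 h to 8 h in kloopmut, and -0.50 for pkl1 in wt. Matched progression, which has no test, reversed 12 of 64 values. Of those that kept their direction, 9 differed from the fitted value by less than the SD of the 2 kloopmut libraries, and 43 did not. That yardstick is narrow: pkl1 at 3 h was among the 43 at 1.047 (SD 0.0019) against a fitted 1.05. Values over 1 to 8 h have no SD and fall among the 43 unless reversed. The split thus does not measure how much matching changed the values. Among the reversed values, gtb1 at 5 h was 0.21, and cut7 and klp5 at 6 h were 0.62 and 0.59. At 7 h, nda2, atb2 and nda3 were -0.50, -0.79 and -0.61. At 8 h, nda2, atb2, pkl1, klp2 and ase1 were -0.38, -0.44, 0.26, 0.045 and 0.74. Over 1 to 8 h, klp2 was -0.018. With reads of overlapping features removed, pkl1 in wt from 3 h to 8 h was -0.25, and gtb1 was -0.47 at 3 h, -0.36 at 4 h, 0.53 and 0.46 from 3 h to 8 h in kloopmut and wt, and 0.064 in the difference of these changes. With 1 value per culture, 8 of 10 calls over 1 to 8 h were kept, gtb1 and klp2 being lost. The cause was not tested beyond what these settings change by construction.

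Members called when a replicate was left out, which leaves a lone library in a group that is assumed to vary like the others, numbered 0 to 1 in V, 3 to 7 at 2 h, 5 to 7 at 7 h, 1 to 6 at 8 h, 3 to 8 for -N against V in kloopmut, 0 to 1 for the difference of that change between strains, and 0 to 2 for the difference in the change from -N to 3 h. Fitted alone, the 2 h libraries gave 1 call against 6. The replicate numbers did not pair the samples across strains (correlations of -0.08 to 0.20). Within a strain, replicate differences at 2 stages correlated by -0.36 to 0.52 in kloopmut (17 of 45 pairs above 0.1). In wt they correlated by -0.06 to 0.27 (9 of 45 above 0.1). Libraries of a culture were thus not fully independent. With the replicate number as a block, 64 of 64 calls between strains were kept and the 8 h count was 8 instead of 7.

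The 40 libraries, 2 a group, came from 4 cultures, but the tests took them as independent. Overlap with features of the other strand limits what 9 of 10 members' counts measure.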
